A study of Mus musculus with 18 samples.

Results

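Eosinophils are granulocytes of allergic airway disease, and the genes described here are those by which they are recognised and armed. The set holds 9 mouse genes of 23284 gene symbols in the mouse tables. They are the granule genes Prg2, Prg3, Epx, Ear1 and Ear2, the surface receptor genes Ccr3, Il5ra and Siglec5, and the lipid-modifying enzyme gene Alox15. They were chosen by name, for their known role in eosinophils. The human set holds 10 of 25432 symbols, in which SIGLEC8 stands for Siglec5 and RNASE2, RNASE3 and CLC, the gene of the Charcot-Leyden crystal protein, stand for the Ear genes. All 9 mouse symbols and all 10 human symbols were found, each as 1 entry per table.

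Eosinophils store cationic proteins in large granules and release them on activation. Prg2 encodes major basic protein, the core of the granule, Prg3 its close homologue, and Epx eosinophil peroxidase. The Ear genes encode secreted ribonucleases. CCR3 is the receptor for the eotaxin chemokines that draw eosinophils into tissue. The IL-5 receptor alpha chain, from Il5ra, binds the cytokine that supports their production and survival. Siglec5 is an older symbol of Siglecf, which encodes an inhibitory sialic acid-binding receptor of mouse eosinophils that is also known from alveolar macrophages. ALOX15, the 12/15-lipoxygenase, oxidises arachidonic acid and is known from eosinophils and some macrophages.

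RNA of 18 libraries in 6 groups of 3 was measured, all labelled as from BALB/c mice. Memory T helper 2 (Th2) cells selected for high ST2, the receptor for the alarm cytokine IL-33, were kept in culture for 3 days in IL-2, to which IL-33 was added in 1 group. Eosinophils were kept for 3 days either without or with amphiregulin, a growth factor of the epidermal growth factor family. Whole lungs came from wild-type mice and from knockout mice titled dGATA, all of them treated with OVA. The labels do not spell out dGATA. As background, a mouse line known by that name lacks a GATA-binding site in the Gata1 promoter and is known for its lack of eosinophils. The design text of the series names HDM, whereas the lung labels name OVA. The labels give no ages, no OVA schedule, no source of the eosinophils and no statement that replicates were separate animals or cultures, so p-values measure the spread between these libraries, which may be technical.

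The eosinophil tables list human gene symbols and human coordinates despite the mouse label, so they were treated as human tables, and their build is not stated in any source at hand. Values are FPKM, fragment numbers scaled by transcript length and library size, so that genes of different length can be compared. Relative depth, estimated from the lowest values with replicate 1 or the lowest number set to 1, spanned 0.58 to 1.0 over the lungs, 0.36 to 1.0 over the eosinophil libraries and 0.67 to 1.34 over the Th2 cultures. No fragment counts were used, so zeros are reported as listed at 0. All 6 lungs held the surfactant gene Sftpc at 18846 FPKM or more, and all 6 Th2 cultures held the T cell gene Cd3e at 144 FPKM or more. The 6 human libraries held CLC at 867 FPKM or more and SIGLEC8 at 13.6 FPKM or more. They also held the neutrophil and monocyte genes S100A8 at 2882 to 8273 FPKM and S100A9 at 3814 to 11392 FPKM, and haemoglobin HBA2 at 748 to 30344 FPKM.

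The promoters shown next are those of Ccr3 and Epx, whose lung groups were separate, of Il5ra, which holds the same short motif, and of the near-identical ribonuclease pair. Each is the 250 bases before the transcription start, from RefSeq, build GRCm38.p6, read 5′ to 3′ on the strand of the gene. Capitals mark GATAA, the letters of a typical GATA factor motif, or its reverse complement TTATC. Of the 9 mouse genes, 7 matched the promoter table, under the symbol Siglecf for Siglec5, and Prg2 and Alox15 were not matched.
Ccr3, chr9:124021721-124021970, plus strand: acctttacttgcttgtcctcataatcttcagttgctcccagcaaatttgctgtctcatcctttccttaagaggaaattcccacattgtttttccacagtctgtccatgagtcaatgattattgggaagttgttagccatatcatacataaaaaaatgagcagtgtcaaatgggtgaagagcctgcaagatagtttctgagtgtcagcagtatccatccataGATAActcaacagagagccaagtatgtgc
Il5ra, chr6:106749038-106749287, minus strand: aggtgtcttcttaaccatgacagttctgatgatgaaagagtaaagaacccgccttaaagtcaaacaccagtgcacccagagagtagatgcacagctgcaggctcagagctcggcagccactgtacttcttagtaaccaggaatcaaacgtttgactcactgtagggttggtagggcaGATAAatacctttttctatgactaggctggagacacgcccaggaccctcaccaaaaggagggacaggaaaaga
Epx, chr11:87875537-87875786, minus strand: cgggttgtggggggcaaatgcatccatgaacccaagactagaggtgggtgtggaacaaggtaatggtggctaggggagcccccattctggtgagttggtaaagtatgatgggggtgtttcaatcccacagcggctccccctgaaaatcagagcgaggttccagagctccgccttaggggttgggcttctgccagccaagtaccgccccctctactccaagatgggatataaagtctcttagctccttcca
Ear1, chr14:43819640-43819889, minus strand: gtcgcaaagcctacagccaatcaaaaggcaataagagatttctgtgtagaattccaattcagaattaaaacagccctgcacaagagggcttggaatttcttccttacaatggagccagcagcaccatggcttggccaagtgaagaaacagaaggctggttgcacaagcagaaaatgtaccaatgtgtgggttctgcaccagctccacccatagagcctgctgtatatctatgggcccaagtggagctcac
Ear2, chr14:44102404-44102653, plus strand: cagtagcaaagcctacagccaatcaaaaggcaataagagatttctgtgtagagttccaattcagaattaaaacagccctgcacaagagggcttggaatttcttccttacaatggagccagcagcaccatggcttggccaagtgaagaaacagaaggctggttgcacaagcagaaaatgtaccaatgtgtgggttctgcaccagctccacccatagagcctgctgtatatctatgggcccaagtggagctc
GATAA was present on the written strand in Ccr3, beginning at base -29, and in Il5ra, beginning at base -73, counted back from the start. The Prg3 promoter held TTATC at bases -123 and -111. The promoters of Epx, Siglec5, Ear1 and Ear2 did not hold the letters on either strand. The 3 of 7 promoters with the motif stand beside 22.6% of 32851 promoters in the table, and 4.28% of those held it more than once, as Prg3 did. The match is a description of letters and shows no binding. The promoters of Ear1 and Ear2 were identical in 246 of 252 aligned columns (97.6%), against 46.3 to 51.8% for the other 20 pairs.

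In OVA-treated lungs, 4 of the 9 genes had wild-type and dGATA libraries that did not overlap, and all 4 were lower in dGATA: the major basic protein gene Prg2, the eotaxin receptor gene Ccr3, the peroxidase gene Epx and the lipoxygenase gene Alox15. Of these, Ccr3 (43.0-fold lower mean FPKM) and Prg2 (22.6-fold) passed the test. The ribonuclease genes Ear1 and Ear2 and the receptor genes Siglec5 and Il5ra did not pass it, and their groups overlapped. In whole lung, fewer cells of a type and less RNA per cell cannot be told apart.

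The test was limma, run on log2(FPKM + 1). On that scale the difference of a gene near or under 1 FPKM is compressed. A gene entered the test with 1 FPKM or more in at least 3 of the 6 libraries and was called at a Benjamini-Hochberg adjusted p below 0.05 over 13727 genes. Of the 9 genes, 7 entered, and 2 were called lower, where 0.051% of all genes tested were called lower (7 genes). The 2 called, Ccr3 and Prg2, reached 1 FPKM in the wild-type lungs only. They thus entered the test through the group where they were high, and the share over all genes is no test of the set. Of the 7 tested, 3 were lower without overlap, as were 9.86% of all genes tested, and Epx was so without entering the test. The median log2 difference of the 7 was -0.43, against -0.03 over all genes tested.

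Ccr3 lies at chr9:124021971-124031689 (mm10, 1-based, 2 exons in GENCODE M21). It was measured at 5.69, 5.88 and 4.53 FPKM in the wild-type lungs and at 0.0493, 0.252 and 0.0729 FPKM in the dGATA lungs. Every dGATA library lay far under every wild-type library. The group means were 5.36 ± 0.733 and 0.125 ± 0.111 FPKM (SD, n = 3 per group), a log2 difference of -2.50 (SE 0.135, 95% interval -2.83 to -2.17, adjusted p = 0.00326, limma). The call was lost without dGATA replicate 3 (adjusted p = 0.0534, limma). With a filter of 5 FPKM, Ccr3 no longer entered the test.

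Prg2 lies at chr2:84980461-84983632 (6 exons). It was measured at 12.2, 10.9 and 6.00 FPKM in wild-type lungs and at 0.0794, 0.677 and 0.529 FPKM in dGATA lungs. The lowest wild-type library, replicate 3, was still well above the highest dGATA library. The means were 9.70 ± 3.27 and 0.428 ± 0.311 FPKM (SD, n = 3 per group), a log2 difference of -2.88 (SE 0.285, 95% interval -3.57 to -2.19, adjusted p = 0.0427, limma). This call sat near the threshold and was lost in limma without wild-type replicate 1 (adjusted p = 0.185), wild-type replicate 2 (0.332), dGATA replicate 1 (0.0742), dGATA replicate 2 (0.121) or dGATA replicate 3 (0.229). It was also lost with a pseudocount of 0.1 (adjusted p = 0.160, limma) or 5 (0.0881), with no filter (0.136) and with a filter of 5 FPKM (0.0539).

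Alox15 (chr11:70344147-70352031, 14 exons) was the most abundant of the 4. It was measured at 33.7, 26.6 and 17.8 FPKM in wild-type lungs and at 0.753, 2.68 and 4.23 FPKM in dGATA lungs. The groups did not overlap, and the library with the lowest value was dGATA replicate 1. The means were 26.0 ± 7.98 and 2.55 ± 1.74 FPKM (SD, n = 3 per group, 10.2-fold). The log2 difference of -3.02 was larger than that of Prg2 or Ccr3, but so was its error (SE 0.428, 95% interval -4.05 to -1.99), and it did not pass (adjusted p = 0.175, limma). It passed when the 6 Th2 libraries were fitted together with the lungs (adjusted p = 0.00192, limma).

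Epx (chr11:87863998-87875536, 13 exons) was measured at 0.262, 0.388 and 0.228 FPKM in wild-type lungs and was listed at 0 in all 3 dGATA lungs. The groups were separate, and the exact permutation p was 0.1 (n = 3 per group), the smallest that 3 against 3 can give. Prg3 (chr2:84988215-84993886, 6 exons) was measured at 0.262, 0.0647 and 0.0690 FPKM in wild-type lungs and at 0, 0.115 and 0 FPKM in dGATA lungs. Its groups overlapped (exact permutation p = 0.3, n = 3 per group). Prg3 begins 4582 bases beyond the end of Prg2, and their longest reading frames were identical in 66.3% of aligned bases. Epx and Prg3 stayed under 0.4 FPKM in every lung, whereas Prg2 reached 6.00 FPKM or more in the wild-type lungs.

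**Figure D1:**
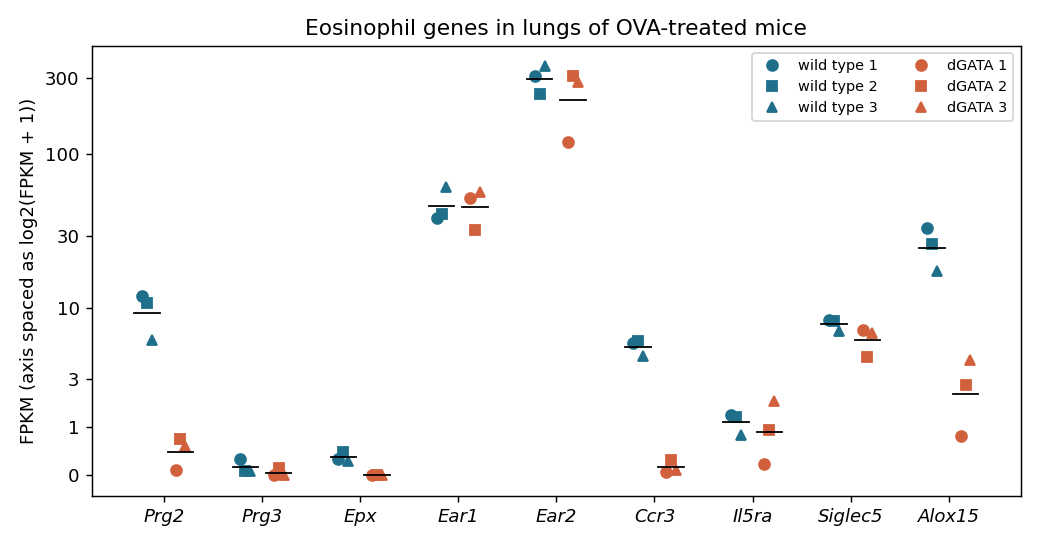
FPKM of the 9 mouse genes in each of 6 lungs, with wild type at the left and dGATA at the right of each gene, bars at the mean of log2(FPKM + 1), and a vertical axis spaced as log2(FPKM + 1). Prg2, Ccr3, Alox15 and Epx show separate groups, whereas Ear1, Ear2, Siglec5, Il5ra and Prg3 overlap.

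The ribonuclease genes were by far the most abundant of the set in both genotypes. Ear2 (chr14:44102654-44103531, 2 exons) was measured at 308, 237 and 355 FPKM in wild-type lungs and at 119, 311 and 284 FPKM in dGATA lungs. Only dGATA replicate 1 lay under the wild-type range. The log2 difference was -0.43 (95% interval -1.36 to 0.50, adjusted p = 0.891, limma), and it was 0.0047 without that library. Ear1 (chr14:43818765-43819639, 2 exons) was measured at 39.1, 41.5 and 62.2 FPKM and at 52.9, 32.9 and 57.4 FPKM, with means of 47.6 ± 12.7 and 47.7 ± 13.03 FPKM (SD, n = 3 per group). The interval of its log2 difference ran from -0.64 to 0.63 (adjusted p = 0.999, limma).

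Values of single Ear genes are uncertain, because near-identical copies can share reads. The longest reading frames of Ear1 and Ear2 were identical in 449 of 471 aligned columns (95.3%). Ear2 and Ear10, which lies next to Ear1, were identical in 97% of columns, and Ear2 and Ear6 in 87.9%. Ear10, measured at 65.8, 59.9 and 81.8 FPKM in wild-type and at 37.7, 73.3 and 71.9 FPKM in dGATA lungs, overlapped between groups. Ear6, at 5.27, 3.29 and 5.70 FPKM against 1.16, 2.96 and 3.19 FPKM, did not overlap, yet it did not pass (log2 -0.78, adjusted p = 0.714, limma). Ear11 was measured at 417, 329 and 360 FPKM in wild-type lungs and at 4.97, 717 and 193 FPKM in dGATA lungs, and its groups overlapped. Of 15 further ribonuclease A superfamily genes in the tables, 8 were tested and 0 were called by limma. Over all 13727 genes tested, limma called 13, so 0 of 8 does not set these genes apart.

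Siglec5 (chr7:43351405-43359470, 10 exons under the symbol Siglecf) was measured at 8.25, 8.17 and 6.998 FPKM in wild-type lungs and at 7.08, 4.50 and 6.69 FPKM in dGATA lungs. Its groups overlapped through dGATA replicate 1 alone. The log2 difference was -0.33 (95% interval -0.73 to 0.07, adjusted p = 0.757, limma). Il5ra (chr6:106710379-106749037, 13 exons) was measured at 1.38, 1.32 and 0.783 FPKM in wild-type lungs and at 0.181, 0.929 and 1.89 FPKM in dGATA lungs. The dGATA libraries held both the lowest and the highest value. The log2 difference was -0.20 (95% interval -0.99 to 0.60, adjusted p = 0.9503, limma), and 0.14 without dGATA replicate 1. The B and plasma cell gene Igj was also lowest in dGATA replicate 1, but it was highest in dGATA replicate 2, where Il5ra was not. Igj was measured at 22.6, 303 and 264 FPKM in dGATA lungs against 116, 149 and 94.4 FPKM in wild-type lungs. The part of B and plasma cells in the Il5ra values was not tested.

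**Figure D2:**
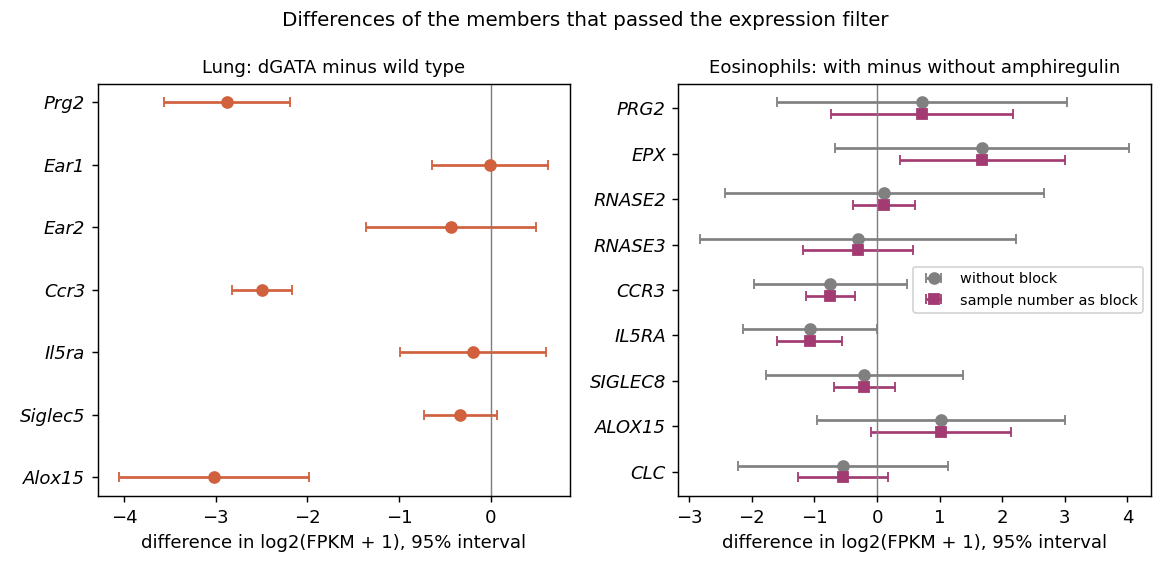
Differences in log2(FPKM + 1) with 95% intervals for the genes that entered the test, dGATA minus wild-type lung at the left and eosinophils with minus without amphiregulin at the right. In the lung, the intervals of Prg2, Ccr3 and Alox15 lie wholly under 0. In the eosinophils, the intervals with the sample number as a block are narrower than those without it.

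The sum of the 4 separated genes is given here beside that of 3 overlapping genes, Siglec5, Ear1 and Ear2. Prg2, Ccr3, Epx and Alox15 summed to 51.9, 43.7 and 28.6 FPKM in wild-type lungs and to 0.881, 3.61 and 4.83 FPKM in dGATA lungs. Siglec5, Ear1 and Ear2 summed to 355, 287 and 424 FPKM in wild-type lungs and to 179, 348 and 348 FPKM in dGATA lungs. The second sum was carried by Ear2 (mean 300 FPKM in wild-type lungs), and Siglec5 (7.81 FPKM) lay under Alox15 (26.0 FPKM) and Prg2 (9.70 FPKM) there. Both sums are descriptions, because the genes were grouped after their values were known. Among the 6 lungs, dGATA replicates 1 and 3 stood apart in markers of other cells. In dGATA replicate 1 the alveolar macrophage markers summed to 612 FPKM, against 3246 to 4321 FPKM in wild-type and 4168 to 7201 FPKM in the other dGATA lungs. The chitinase-like gene Chi3l3, which dominates that sum, was at 166 FPKM there and at 2833 FPKM or more in the other lungs. In dGATA replicate 3, erythroid markers summed to 9491 FPKM, against 112 to 1041 FPKM in the other lungs, and Fabp4 was at 466 FPKM, against 23.5 to 121 FPKM. Without dGATA replicate 3 the groups of Prg2, Ccr3 and Alox15 had log2 differences of -2.94, -2.47 and -3.37, and 0 of the set passed (adjusted p = 0.229, 0.0534 and 0.232, limma). Without dGATA replicate 1 Ccr3 still passed (log2 -2.45, adjusted p = 0.0106, limma), and Alox15 remained separate but did not pass (log2 -2.58, adjusted p = 0.0868, limma).

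**Figure D3:**
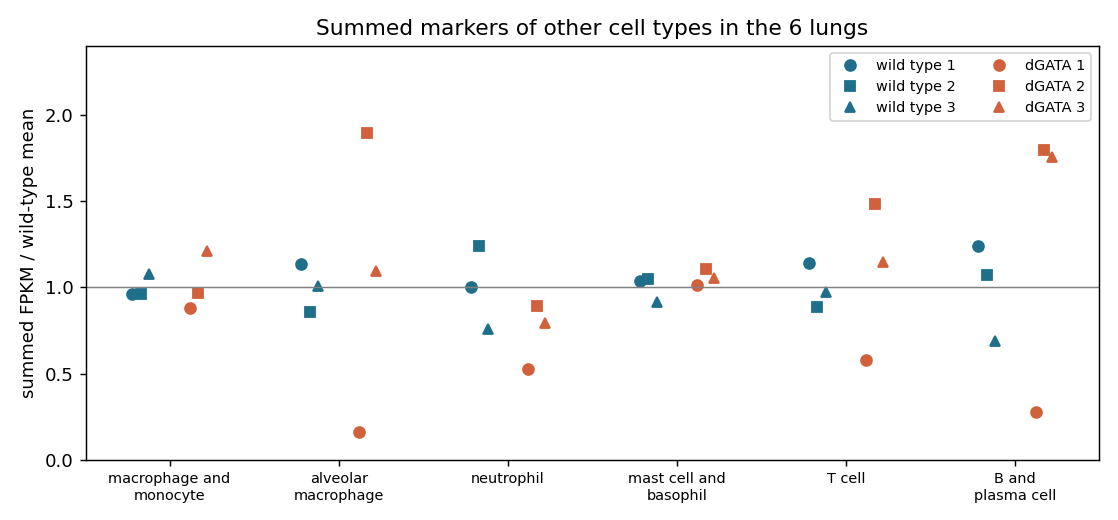
Summed FPKM of markers of 6 other cell classes in each lung, divided by the wild-type mean of that class (horizontal line at 1). dGATA replicate 1 is the lowest lung for macrophage and monocyte, alveolar macrophage, neutrophil, T cell and B and plasma cell markers. The mast cell and basophil sum, carried by Gata2, Hdc and Kit, is near the wild-type mean in all 3 dGATA lungs.

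Mast cells and basophils share granule and receptor genes with eosinophils. Their 11 markers summed to 134 to 154 FPKM in wild-type and to 148 to 162 FPKM in dGATA lungs. Of these, 0 of 7 tested were called by limma, where 13 of all 13727 genes tested were called. That sum was carried by Gata2 (means 32.6 and 48.4 FPKM), Hdc (41.6 and 54.4 FPKM) and Kit (41.7 and 39.3 FPKM). The median log2 difference of the 7 was -0.805, with 5 below 0. The tryptase gene Tpsab1 was measured at 13.1, 13.5 and 2.86 FPKM against 0.567, 3.45 and 4.25 FPKM, and the protease gene Cpa3 at 8.66, 8.34 and 4.61 FPKM against 1.25, 5.56 and 5.42 FPKM, both with overlap. The mast cell protease gene Mcpt4 was lower without overlap, at 4.14, 3.43 and 1.77 FPKM against 0.961, 1.501 and 0.854 FPKM (log2 -0.93, adjusted p = 0.560, limma). The basophil protease gene Mcpt8, at 0.308, 0.988 and 0.487 FPKM against 0.0794, 0.203 and 0.176 FPKM, lay under the filter (exact permutation p = 0.1, n = 3 per group). The part of these cells in the Prg2, Ccr3 and Alox15 values was not tested.

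Among 24 other genes known from eosinophils, 23 were in the tables and 20 were tested. Of the 20, 1 was called lower by limma (0.051% of all genes tested), 7 were lower without overlap (9.86% of all genes tested) and 1, Cd9, was higher without overlap. The called gene was Cebpe, the transcription factor of granulocyte granule genes. It was measured at 5.45, 4.24 and 2.84 FPKM in wild-type lungs and at 0, 0.124 and 0.108 FPKM in dGATA lungs (log2 -2.23, SE 0.201, adjusted p = 0.0271, limma). The paired immunoglobulin-like receptor gene Pira1 was measured at 5.59, 5.27 and 6.16 FPKM against 1.92, 2.43 and 1.63 FPKM (log2 -1.16, adjusted p = 0.0652, limma). The adhesion receptor gene Emr4 was measured at 2.17, 2.26 and 1.88 FPKM against 0.705, 0.561 and 0.647 FPKM (log2 -0.92, adjusted p = 0.0872, limma). The coagulation factor V gene F5 was measured at 3.50, 3.31 and 1.67 FPKM against 0.196, 0.530 and 0.552 FPKM (log2 -1.40, adjusted p = 0.268, limma). In all 3, each dGATA library lay under each wild-type library, as the 4 separated genes of the set did. Cebpe, Emr4 and F5 reached 1 FPKM in the wild-type lungs only, so they too entered the test through the group where they were high.

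Gata1, the transcription factor gene of the eosinophil, mast cell and red cell lineages, was measured at 1.65, 1.23 and 0.963 FPKM in wild-type lungs and at 0.126, 0.134 and 0.314 FPKM in dGATA lungs. It lay under the filter of the lung test because of its low level (exact permutation p = 0.1, n = 3 per group). Because the labels do not say what the knockout removes, this level does not check them. The shared cytokine receptor chain gene Csf2rb, by contrast, overlapped at 22.8, 21.0 and 19.8 FPKM against 9.13, 32.7 and 18.6 FPKM.

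Of 8 listed ligand genes of the receptors, 7 had a value in at least 1 lung, and Il3 was listed at 0 in all 6. The eotaxin gene Ccl11 was measured at 76.6, 72.3 and 56.9 FPKM in wild-type lungs and at 4.64, 97.1 and 31.2 FPKM in dGATA lungs. Ccl24, which encodes eotaxin-2, was measured at 9.997, 5.91 and 5.45 FPKM against 1.35, 29.3 and 4.07 FPKM. Both were lowest in dGATA replicate 1 and highest in dGATA replicate 2, and Ccr3 was low in each of those libraries. Il5 stayed between 0.152 and 0.367 FPKM over the 6 lungs. Of the ligand genes, 6 were tested and 0 were called by limma, where 13 of all 13727 genes tested were called.

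The leukotriene gene Alox5 was the lipoxygenase pathway gene next to Alox15 in separation, at 8.17, 9.60 and 7.06 FPKM against 4.30, 3.32 and 5.59 FPKM (log2 -0.79, adjusted p = 0.449, limma). The other tested genes of that pathway, such as Alox5ap at 57.0 to 66.1 FPKM in wild-type and 37.3 to 69.5 FPKM in dGATA lungs, overlapped. Of the genes lying next to members of the set, other than members, 0 were called by limma, where 13 of all 13727 genes tested were called. Slc43a3, beside Prg2, was measured at 188 ± 26.2 and 198 ± 23.7 FPKM (SD, n = 3 per group, adjusted p = 0.955, limma). Ccr2, the chemokine receptor gene on the higher-coordinate side of Ccr3, was lower without overlap at 15.7, 20.3 and 17.5 FPKM against 6.99, 13.5 and 11.97 FPKM, and did not pass (log2 -0.71, adjusted p = 0.649, limma). Pelp1, beside Alox15, was measured at 7.78 ± 0.302 and 7.77 ± 0.664 FPKM (SD, n = 3 per group).

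Over the 6 lungs, the genes whose log2(FPKM + 1) ran most like that of Ccr3 were Tmem72 (correlation 0.995), Bend4 (0.995), Naa35 (0.993), Rem1 (0.993), Cebpe (0.990), Emr4 (0.989), Prrx1 (0.988) and Svep1 (0.987). These values describe 6 libraries in 2 separate groups, so a gene with a tight difference between genotypes ranks high whatever its size. Tmem72, for example, was at 10.7, 11.5 and 10.8 FPKM in wild-type lungs and listed at 0 in all 3 dGATA lungs. Naa35 ran from 13.9 to 14.2 FPKM and from 11.9 to 12.1 FPKM. Within the set the same measure was 0.988 for Prg2, 0.955 for Alox15, 0.635 for Siglec5, 0.430 for Ear2, 0.274 for Il5ra and -0.090 for Ear1.

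In the human libraries, 0 of the 9 tested genes passed in the comparison of eosinophils with and without amphiregulin (limma, with or without a block). The question was which genes respond to amphiregulin. The receptor genes CCR3 and IL5RA and the crystal protein gene CLC were lower with amphiregulin in 3 of 3 libraries of equal number. The peroxidase gene EPX was higher in 3 of 3, though almost level in number 4, and PRG2 and ALOX15 were higher in numbers 2 and 3 and lower in number 4.

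Libraries of equal number deviated together from their group means (correlations 0.399, 0.356 and 0.670 over 12635 genes), so a fit that blocks on the number is given as well. Numbers 2 and 3 also deviated together across numbers (0.308 and 0.281), whereas number 4 ran opposite to both (-0.506 to -0.428). The correlations thus set number 4 apart and do not show that numbers 2 and 3 are separate matched pairs. Of 12635 genes tested, 0.206% were called without the block (4 higher, 22 lower, 393 at an unadjusted p below 0.05) and 1.12% with it (67 higher, 74 lower, 1423 at an unadjusted p below 0.05). Of the 9 tested genes, 0 had groups without overlap, as did 6.69% of all genes tested. Lower in all 3 pairs were 3 of the 9, against 14.9% of all genes tested, and higher in all 3 was 1, EPX, against 17.6%. Rescaling to a common sum (TPM) shifted the median log2 difference of all genes by 0.192 and gave 8 higher and 22 lower calls, and CCR3, IL5RA and CLC were again lower, and EPX higher, in 3 of 3 pairs.

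CCR3 was measured at 53.4, 72.2 and 137 FPKM without amphiregulin and at 28.5, 42.2 and 90.2 FPKM with it, for numbers 2, 3 and 4. The ratios within numbers were 0.534, 0.585 and 0.661. The groups overlapped because number 4 was highest in both. The log2 difference was -0.74, with a 95% interval of -1.97 to 0.48 without the block and -1.13 to -0.36 with it (adjusted p = 0.999 and 0.115, limma). IL5RA was measured at 4.51, 4.88 and 10.6 FPKM without and at 1.89, 1.41 and 4.79 FPKM with amphiregulin, giving ratios of 0.419, 0.288 and 0.451. Its log2 difference was -1.07 (95% interval with the block -1.59 to -0.56, adjusted p = 0.0981 with the block and 0.999 without, limma).

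CLC, whose product forms crystals in eosinophil-rich tissue, was measured at 1490, 1235 and 4483 FPKM without and at 867, 1161 and 2620 FPKM with amphiregulin. It was the most abundant gene of the set in every library, at rank 21 among all symbols by its mean without amphiregulin and rank 28 with it. The ratios were 0.582, 0.939 and 0.584 (log2 -0.55, adjusted p = 0.585 with the block, limma). SIGLEC8, the inhibitory receptor of human eosinophils, was measured at 38.1, 13.6 and 72.9 FPKM without and at 28.0, 16.7 and 52.7 FPKM with amphiregulin. It was lower in numbers 2 and 4 and higher in number 3.

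The granule genes did not share a pattern over the numbers. PRG2 was measured at 37.9, 29.9 and 26.2 FPKM without and at 138, 108 and 8.63 FPKM with amphiregulin. Its ratios were 3.63 and 3.62 in numbers 2 and 3 and 0.330 in number 4, so the log2 difference of 0.72 had a block interval of -0.73 to 2.17 (adjusted p = 0.773, limma). EPX was measured at 1.45, 0 and 0.552 FPKM without and at 23.6, 2.26 and 0.561 FPKM with amphiregulin, with a ratio of 1.02 in number 4. The log2 difference was 1.68 (block interval 0.36 to 3.00, adjusted p = 0.301, limma). PRG3 was listed at 0 in all 3 libraries without amphiregulin and measured at 2.85, 0.438 and 0 FPKM with it (exact permutation p = 0.4, n = 3 per group).

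ALOX15 was measured at 106, 31.6 and 378 FPKM without and at 193, 187 and 302 FPKM with amphiregulin. The ratios were 1.83, 5.93 and 0.799 (log2 1.02, block interval -0.10 to 2.14, adjusted p = 0.492, limma). RNASE2, the gene of the eosinophil-derived neurotoxin, was measured at 25.1, 20.5 and 2.17 FPKM and at 33.6, 16.9 and 2.65 FPKM. RNASE3, the gene of the eosinophil cationic protein, was measured at 20.7, 1.80 and 2.71 FPKM and at 15.4, 3.69 and 0.551 FPKM. Both ribonuclease genes differed more between numbers than between cultures.

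Leaving out number 4, an alternative chosen after seeing the data, changed 4 calls in the block fit. PRG2 (log2 1.83, adjusted p = 7.26e-08), EPX (2.52, adjusted p = 3.61e-10), ALOX15 (1.70, adjusted p = 2.09e-06) and IL5RA (-1.11, adjusted p = 0.0429) then passed in limma, in a fit on 2 pairs that called 683 genes. With 2 pairs these p-values rest mostly on a spread that limma pools over all genes, and little on that of the gene itself. The log2 differences of numbers 2 and 3 were 1.83 and 1.82 for PRG2, but 3.33 and 1.70 for EPX and 0.863 and 2.53 for ALOX15. Leaving out number 2 or 3 called 0 of the 9. Without number 2 the adjusted p was 0.633 for CCR3 and 0.225 for IL5RA, and without number 3 it was 0.230 for both (limma).

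**Figure D4:**
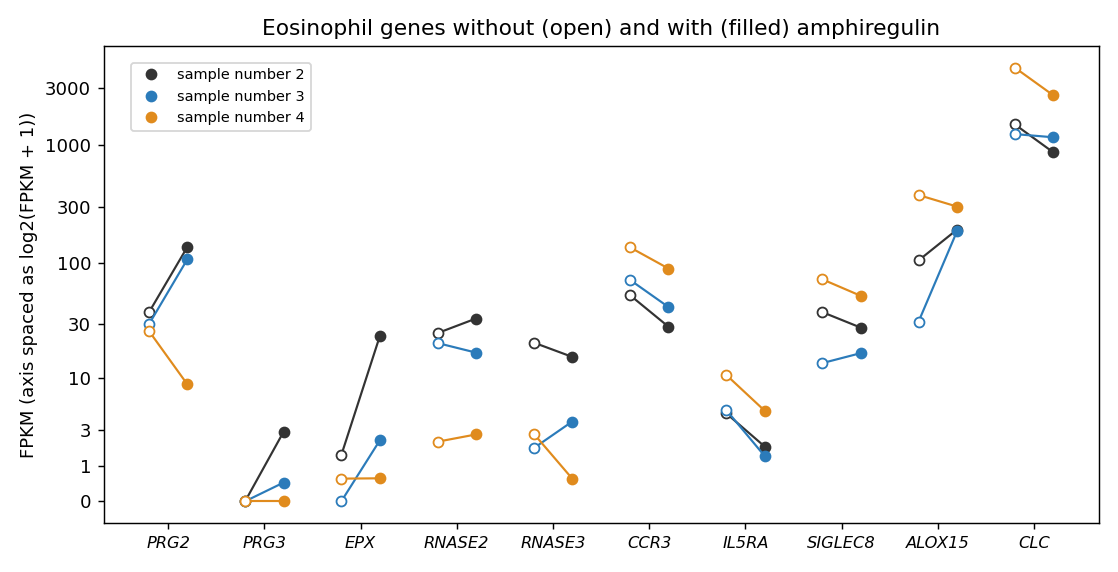
FPKM of the 10 human genes, with lines joining the libraries of equal number without (open) and with (filled) amphiregulin, on an axis spaced as log2(FPKM + 1). The lines of CCR3, IL5RA and CLC all slope down, and those of PRG2 slope up for numbers 2 and 3 and down for number 4.

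Number 4 also differed in the markers of other cells. Macrophage and monocyte markers summed to 3810, 3644 and 532 FPKM without and to 1175, 1645 and 318 FPKM with amphiregulin, so they were lower with amphiregulin in each number, and 10 of 12 had a log2 difference below 0. With the block, 4 of the 12 were lower by limma, where 0.586% of all genes tested were called lower: CD14 (log2 -3.82, adjusted p = 0.00194), APOE (-3.16, 0.00872), CD163 (-2.91, 0.00872) and MERTK (-2.10, 0.0432). MRC1, the mannose receptor gene on the alveolar macrophage list, was higher with the block, at 2.17, 2.75 and 0.535 FPKM without and 55.3, 93.8 and 16.8 FPKM with amphiregulin (log2 4.11, adjusted p = 0.00127, limma).

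Neutrophil markers summed to 21491, 11434 and 8124 FPKM without and to 14419, 10152 and 6763 FPKM with amphiregulin. Of the 9, 7 had a log2 difference below 0, and 2 were called lower with the block by limma, where 0.586% of all genes tested were called lower: CAMP (log2 -3.16, adjusted p = 0.022) and FCGR3B (-3.56, 0.0301). The other two were above 0 without passing. The precursor-stage granule gene ELANE was measured at 35.7, 15.4 and 1.28 FPKM and at 49.0, 32.9 and 3.13 FPKM, and MPO at 18.8, 8.70 and 1.38 FPKM and at 31.3, 31.7 and 4.12 FPKM. Both were lowest in number 4, as RNASE2 was. CCR3 is also known from basophils, and basophil and mast cell markers summed to 349, 1054 and 161 FPKM and to 213, 722 and 104 FPKM. They were lower with amphiregulin in each number, as CCR3 and IL5RA were. The T cell, neutrophil, erythroid and macrophage and monocyte sums were also lower in each number. Higher in each number were the dendritic cell sum (8.58, 4.04 and 0.987 FPKM without, 98.8, 67.2 and 10.3 FPKM with amphiregulin) and the alveolar macrophage sum. The latter was at 223, 249 and 204 FPKM without and 501, 596 and 374 FPKM with amphiregulin. Between numbers, the basophil and mast cell sum was lowest in number 4, where CCR3 and IL5RA were highest. The part of basophils and mast cells in the CCR3 and IL5RA values was not tested.

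Of 23 other human eosinophil genes, all tested, 0 were called by limma with or without the block, where 1.12% and 0.206% of all genes tested were called. CSF2RB, the receptor chain shared by IL-5, IL-3 and GM-CSF, was measured at 137, 183 and 303 FPKM without and at 283, 275 and 619 FPKM with amphiregulin. Its ratios of 2.06, 1.501 and 2.04 lay opposite to those of its partner IL5RA (log2 0.88, adjusted p = 0.119 with the block, limma). The integrin gene ITGAM was higher in 3 of 3 pairs (ratios 1.84, 2.401 and 1.92, adjusted p = 0.0605 with the block, limma). The serine protease gene PRSS33 was measured at 154, 46.2 and 638 FPKM without and at 120, 59.9 and 659 FPKM with amphiregulin, so number 4 held most of it, as it did of CLC and CCR3.

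Ligands of CCR3 were tested beside their receptor. CCL24 was measured at 1.31, 0 and 1.47 FPKM without and at 6.45, 10.2 and 23.4 FPKM with amphiregulin, and it was called higher with the block (log2 2.83, adjusted p = 0.0225, limma) but not without it (adjusted p = 0.453, limma). CCL13 was listed at 0 in all 3 libraries without amphiregulin and measured at 9.97, 77.4 and 10.5 FPKM with it (log2 4.42, adjusted p = 0.0175 with the block and 0.265 without, limma). It entered the test only through the libraries with amphiregulin, the group where it was high. Neither group of libraries held CCL11 or IL5, which were listed at 0 in all 6.

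Over the 6 human libraries, the genes whose log2(FPKM + 1) was most like that of CCR3 were TMEM159 (correlation 0.989), DCAF8L2 (0.989), ZHX2 (0.989), NDEL1 (0.987), FPR1 (0.984), TCF20 (0.982), NEDD9 (0.978) and IRS2 (0.976). Within the set the measure was 0.926 for CLC, 0.909 for IL5RA, 0.576 for SIGLEC8 and 0.215 for ALOX15, and it was negative for RNASE3 (-0.653), EPX (-0.803), PRG2 (-0.813) and RNASE2 (-0.862). The 6 points share 3 numbers and differ in depth, and the values are descriptions.

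In the Th2 cultures, 1 gene of the 9 was expressed at a testable level, and it was a receptor gene. Ccr3, which is also known from some Th2 cells, was measured at 1.22, 1.70 and 0.620 FPKM with IL-2 alone and at 7.22, 5.68 and 7.95 FPKM with IL-2 and IL-33. Every IL-33 library lay above every IL-2 library. The means were 1.18 ± 0.543 and 6.95 ± 1.16 FPKM (SD, n = 3 per group), a 5.88-fold rise (log2 1.89, SE 0.205, 95% interval 1.40 to 2.37, adjusted p = 0.00069, limma). It stayed called in all 16 alternatives (highest adjusted p = 0.00602, limma), but 16.3% of the 10296 genes tested were called higher in this comparison (1680 genes, against 2651 lower). The split was 1890 higher and 1586 lower after rescaling to TPM and 2158 and 1874 with median-of-ratios scaling, which shifted the median of all genes by 0.104.

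The other 8 genes lay at 0.221 FPKM or less in every Th2 library. Prg2, Epx and Ear2 were listed at 0 in all 6. Ear1 had a value in 1 library (0.220 FPKM) and Prg3 in 1 (0.101 FPKM), both with IL-2 alone. Il5ra, Siglec5 and Alox15 reached 0.0542, 0.0810 and 0.0916 FPKM. The Th2 cells with IL-33 held the Ccr3 RNA without that of the granule genes.

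**Figure D5:**
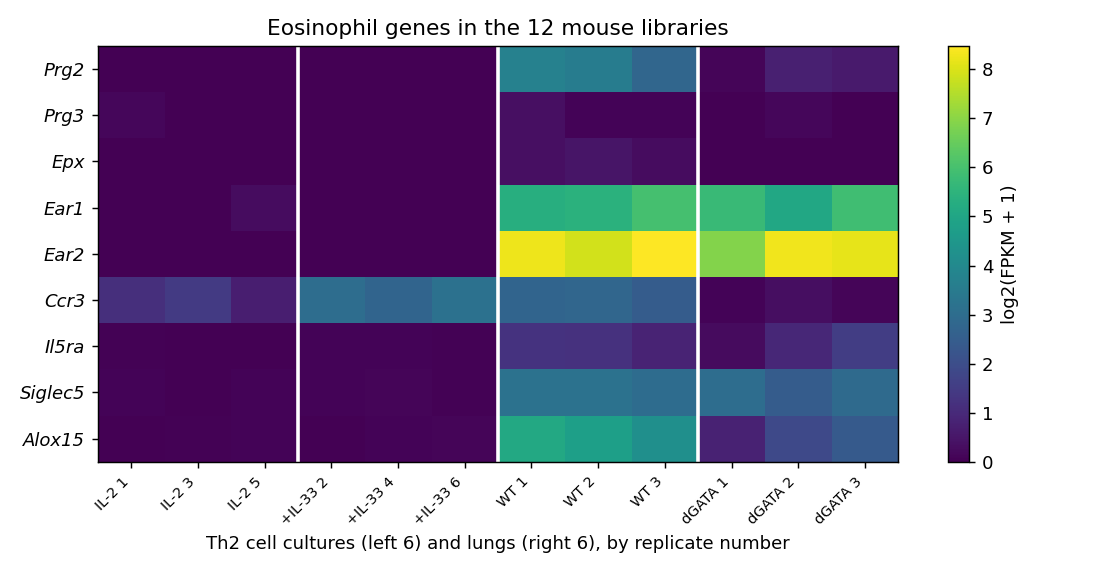
log2(FPKM + 1) of the 9 mouse genes in the 6 Th2 cultures (left) and the 6 lungs (right), with white lines between groups. Ccr3 is the brightest row in the Th2 cells, more so with IL-33, and the rows of Ear1 and Ear2 stay bright in both lung genotypes.

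Other genes known from eosinophils were mixed in the Th2 cells, with 4 of 8 tested called higher and 3 lower by limma, where 16.3% of all genes tested were called higher and 25.7% lower. Il1rl1, the gene of ST2, rose to 512 FPKM from 51.5 FPKM (adjusted p = 7.09e-06, limma), and the surface glycoprotein gene Cd24a rose to 45.6 FPKM from 1.76 FPKM (adjusted p = 3.02e-05, limma). The IL-3 receptor chain gene Il3ra rose to 11.5 FPKM from 3.86 FPKM (adjusted p = 5.28e-05, limma, log2 1.36), and the integrin gene Itgb7 rose to 132 FPKM from 41.8 FPKM (adjusted p = 6.94e-05, limma, log2 1.63). The histamine receptor gene Hrh4 fell to 0.414 FPKM from 2.57 FPKM (adjusted p = 0.000638, limma, log2 -1.35), and Gata1 fell to 0.695 FPKM from 2.11 FPKM (adjusted p = 0.006, limma, log2 -0.86). Hrh4 and Gata1 entered the test only through the libraries without IL-33, where they were high. The largest fall of the 3 was that of Cd9, to 5.00 FPKM from 29.7 FPKM (adjusted p = 0.0022, limma, log2 -2.30). Among the ligands, the eosinophil growth factor gene Il5 was called higher and the CCR3 ligand gene Ccl5 was called lower, at 32.1 FPKM against 183 FPKM (adjusted p = 2.44e-05, limma, log2 -2.48).

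Set in order across the 4 mouse groups, the mean level of Ccr3 was highest in Th2 cells with IL-33 (6.95 FPKM), then in wild-type lung (5.36 FPKM), in Th2 cells with IL-2 (1.18 FPKM) and in dGATA lung (0.125 FPKM). The ranges of the first pair in that order overlapped (5.68 to 7.95 and 4.53 to 5.88 FPKM), and the other neighbours did not. Prg2, Alox15, Siglec5, Il5ra, Ear1 and Ear2 had higher means in both lung groups than in both Th2 groups. Between lung genotypes the order was wild type above dGATA for 8 of the 9 by mean FPKM, and Ear1 was level, at 47.6 and 47.7 FPKM. These orders across tissues are descriptions and were not tested.

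Within wild-type lung the order of mean FPKM was Ear2 (300.1), Ear1 (47.6), Alox15 (26.0), Prg2 (9.70), Siglec5 (7.81), Ccr3 (5.36), Il5ra (1.16), Epx (0.292) and Prg3 (0.132). In dGATA lung, Ear2 and Ear1 were followed by Siglec5 (6.09), Alox15 (2.55) and Il5ra (0.999), ahead of Prg2 (0.428) and Ccr3 (0.125). In the human eosinophils without amphiregulin the order began with CLC (2403), ALOX15 (172), CCR3 (87.4) and SIGLEC8 (41.5) and ended with IL5RA (6.67), EPX (0.668) and PRG3, listed at 0. With amphiregulin, EPX (8.81) stood above RNASE3 (6.56) and IL5RA (2.70) by mean, and PRG3 (1.10) was again last. The EPX mean was carried by number 2 (23.6 FPKM). EPX lay under RNASE3 in number 3 (2.26 and 3.69 FPKM) and under IL5RA in number 4 (0.561 and 4.79 FPKM). CCR3 ranked above PRG2 in the human cells without amphiregulin and below it in wild-type mouse lung. With amphiregulin the mean of CCR3 (53.6) also lay below that of PRG2 (84.9), although in number 4 CCR3 (90.2) lay above PRG2 (8.63).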

How the data were processed

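The authors deposited FPKM values per gene for 18 libraries. Per the labels' protocols, total RNA was taken with TRIzol and libraries were made with a stranded mRNA kit. The submitters' processing notes name Bowtie 0.12.8, TopHat 1.3.2, Cufflinks 2.0.2 and mm10. For the human tables no source used here gives the build. FPKM were summed per symbol, and 116 human sex-linked symbols were left out. Each comparison used its own 6 libraries. Values were transformed to log2(FPKM + 1), genes with 1 FPKM or more in at least 3 libraries were kept, and the trend version of limma (3.58.1, in R 4.3.3) was run with Benjamini-Hochberg adjustment. The script was tested on simulated data. Genes under the filter were compared by a two-sided exact permutation test. Total depth is unknown, so no counting interval is given. Eosinophil replicate numbers were treated as pairs because equal numbers correlated above 0.1, whereas lung numbers were not (-0.286, -0.116 and -0.243). Eosinophil numbers 2 and 3 also correlated above 0.1 with each other (0.308 and 0.281), so that threshold does not tell these numbers apart.

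The genes, marker lists and tests were chosen with earlier results of these data known. All genes of the set were named whatever their result, with up to 4 of each list by smallest p and the 8 most like Ccr3 or CCR3. Genes named outside this rule, among them Csf2rb, Ear10, Ear11, PRSS33, ELANE, MPO, Mcpt8, Hdc, Kit, Fabp4, Hrh4 and the Th2 values of Gata1 and Cd9, were chosen after their values were seen. Promoters came from RefSeq (GRCm38.p6) and reading frames from GENCODE M21 transcripts. No library pair held identical values. Alternatives were other pseudocounts, filters and scalings, leaving out libraries, a replicate block and a fit over 12 mouse libraries.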

Additional observations from a re-analysis of the deposited data

How the results depend on the processing

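In the lung, 2 genes of the set were called. The count was 1 with a pseudocount of 0.1 or 5 or no filter, and 0 with a filter of 5 FPKM, where Ccr3 was not tested. Leaving out 1 library gave 0 to 2 of the set and 2 to 16 of all genes (main 13). The fit over 12 mouse libraries called 93 of all genes. Lung replicate numbers did not pair the libraries. With the replicate block, 3 genes and 0 of the set were called, and the adjusted p by limma was 0.0828 for Ccr3 and 0.372 for Prg2. Uncalled log2 differences changed sign for Ear1 (0.0393 with median-of-ratios scaling, -0.15 to 0.24 without 1 library) and, in both cases without dGATA replicate 1, for Il5ra (-0.51 to 0.14 without 1 library) and Ear2 (-0.69 to 0.0047).

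In the eosinophils, 26 genes were called. The count was 7 with a pseudocount of 0.1, 4 with 5, 8 with a filter of 5 FPKM, 1 without small RNA features and 4 to 72 without 1 library. The paired fit with the replicate block called 141, which became 218 without number 2, 19 without number 3 and 683 without number 4, where the set had 4. Uncalled log2 differences changed sign without 1 library for SIGLEC8 (-0.83 to 0.34), RNASE3 (-1.17 to 0.61), CLC (-1.01 to 0.0261) and RNASE2 (-0.85 to 1.04). They also changed sign for SIGLEC8 rescaled to TPM (0.0036) and, with the block, for RNASE3 without number 4 (0.17) and RNASE2 without number 2 (-0.0325). In the Th2 cells, 4331 genes were called, and 2740 (without IL-33 replicate 4) to 4862 without 1 library. No replicate number recurs between the Th2 groups, so no paired fit was made there. The cause of these changes was not tested.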
